A study of Mus musculus with 60 samples.

Results

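The 5 caspase genes Casp1, Casp2, Casp6, Casp8 and Casp9 were described in mouse brain. They were chosen by gene symbol, were each found as a single entry, and are 5 of the 47597 gene entries of every table. RNA was sequenced from 60 libraries of C57BL/6N mice aged 3 months, labelled as cortex or striatum, in 10 groups of 6 libraries with 3 males and 3 females each. By the labels each mouse gave 2 libraries, 1 of cortex and 1 of striatum, so the numbers of libraries below are not numbers of mice. The Δ12 line carries a deletion of 135 bases in exon 12 of the endogenous Htt gene, made by CRISPR/Cas9 with a new splice donor, and it supplied groups labelled +/+, Δ12/+ and Δ12/Δ12. The KO line carries an imprecise and larger deletion that also takes away the normal splice donor, arose as a founder in which the designed repair failed, and supplied groups labelled +/+ and KO/+. Both are alleles of the germ line, not limited to a cell type, and the KO line goes back to 1 founder. The Δ12 mice were made to ask whether losing this part of exon 12 affects what huntingtin does in embryonic development. Cleavage by caspase-6 was studied on recombinant Δ12 protein and in cell lysates. The levels below answer whether the transcripts of these caspases differed between the labelled genotypes. Levels are FPKM, fragments normalized to transcript length and library size, divided by 1 scale factor per library and called rescaled FPKM.

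Caspases are proteases that cut their substrates after aspartate residues. Initiator caspases are activated on protein platforms and switch on effector caspases, which cut structural and regulatory proteins during apoptosis, while inflammatory caspases process cytokine precursors. In Huntington's disease the cleavage of huntingtin by caspase-6 is known for producing N-terminal fragments, and the site lies at the junction of exons 12 and 13.

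The end of Htt exon 12 is shown because it holds the start of the caspase-6 site. The end points of the Δ12 deletion in the mouse genome are not given in the sources used here, and the last 135 bases of the exon are taken as the deleted stretch after the human isoform of this name. In GENCODE M21, on the plus strand of GRCm38, exon 12 of the 67 exons of Htt spans chr5:34812852-34813192, and its last 135 bases, chr5:34813058-34813192, encode 45 residues of the 3120 of huntingtin. They are followed here by the first 12 bases of exon 13, chr5:34817143-34817154, and the capitals mark the 4 codons of the tetrapeptide at residues 561 to 564 after which caspase-6 cuts.

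Htt exon 12 end and exon 13 start: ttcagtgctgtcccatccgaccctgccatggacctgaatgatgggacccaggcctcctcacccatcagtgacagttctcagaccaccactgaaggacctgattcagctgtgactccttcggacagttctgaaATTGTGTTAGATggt

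The first of the 4 codons ends exon 12 and the other 3 begin exon 13. A transcript that lacks these 135 bases keeps its reading frame, encodes 3075 residues and has another residue in the first position of the tetrapeptide.

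The caspases themselves share the catalytic cysteine, and the codons around it are shown because they mark what the 5 genes have in common. The windows of 51 bases below come from the coding sequences of GENCODE M21, all on the plus strand of GRCm38, with the 5 codons of the pentapeptide around that cysteine in capitals.

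Casp6: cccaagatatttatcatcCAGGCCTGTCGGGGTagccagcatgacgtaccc
Casp9: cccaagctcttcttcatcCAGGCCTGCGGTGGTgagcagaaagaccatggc
Casp8: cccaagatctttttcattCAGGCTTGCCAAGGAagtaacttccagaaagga
Casp2: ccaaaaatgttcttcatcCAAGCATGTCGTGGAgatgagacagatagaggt
Casp1: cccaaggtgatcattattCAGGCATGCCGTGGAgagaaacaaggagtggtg

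Between any 2 of these windows 27 to 34 of the 51 bases were identical. The window of Casp8 lies within exon 9, and an intron divides the windows of Casp1, Casp2, Casp6 and Casp9. Casp6 encodes 276 residues (chr3:129901425-129914103), Casp9 454 (chr4:141793612-141815976), Casp8 500 (chr1:58795374-58847503), Casp2 452 (chr6:42264985-42282508) and Casp1 402 (chr9:5298517-5307265). Casp9 overlaps Cela2a and Ctrc on the opposite strand. Casp2 and Casp8 each contain an annotated transcript on the same strand, Gm25108 and Gm37760, so that fragments in these overlaps could be assigned to either gene.

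The measured transcripts went against many tissue and sex labels, which sets how the caspases can be compared. Slc17a7 encodes a vesicular glutamate transporter found in projection neurons of the cortex. A threshold of 100 FPKM for it divided the libraries into 30 called cortex-like (121 to 234 FPKM) and 30 called striatum-like (4.81 to 64.8 FPKM). The dopamine receptor gene Drd2 of striatal neurons was at 0 to 18.5 FPKM in the former and at 29.4 to 61.8 FPKM in the latter. Under both tissue labels, the +/+, Δ12/+ and male Δ12/Δ12 libraries of the Δ12 line were cortex-like, and the female Δ12/Δ12 libraries and the whole KO line were striatum-like. The tissue label matched in 30 of the 60 libraries, and labelled sex matched the higher of Xist and Ddx3y in 30 of 60. Labels unrelated to the transcripts would match as often. These transcripts do not show whether the labels of genotype and mouse hold. The title of 1 library, striatum KO-line KO/+ female3, names the Δ12 line and its genotype label the KO line, and it was placed by its genotype label. Libraries are named by their labels, labelled genotypes are compared only within an expression-defined tissue, and each p measures the spread between libraries so labelled. Depth estimated from the deposited intervals was 12700000 to 27500000 fragments, and entries above 0 numbered 18682 to 22079 apart from cortex Δ12-line +/+ male1 with 16414 and cortex Δ12-line +/+ female1 with 14925.

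The targeted gene gave little to check the genotype labels. Rescaled FPKM of Htt was 4.81, 9.81 and 11.2 (lowest, median and highest, n = 12) in +/+ and 6.66, 8.42 and 11.0 (n = 12) in Δ12/+ of the Δ12 line, and 7.64, 8.08 and 10.1 (n = 6) in male Δ12/Δ12. In the KO line it was 16.6, 17.5 and 20.7 (n = 12) in +/+ and 12.7, 17.0 and 20.0 (n = 12) in KO/+. The ranges overlapped in each comparison, and in KO/+ the log2 difference of Htt was -0.11 (SE 0.07, limma adjusted p = 0.387).

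Casp6, the effector caspase that cuts lamin A and huntingtin, was expressed at a low level in both expression-defined tissues. In the 30 cortex-like libraries its rescaled FPKM was 0.131, 1.56 and 4.26 (lowest, median and highest), and in the 30 striatum-like libraries 0.548, 1.08 and 2.48. The striatum-like range lay within the cortex-like range, and 6 cortex-like libraries exceeded every striatum-like one, or 15 on FPKM as deposited. The spread differed more than the level, with a coefficient of variation of 55.5% in cortex-like and 34.0% in striatum-like libraries. The lowest value had an interval as wide as that of 0.338 fragments. The 3 lowest cortex-like values were in striatum Δ12-line Δ12/Δ12 male1 (0.131), striatum Δ12-line Δ12/+ female2 (0.256) and striatum Δ12-line Δ12/+ female3 (0.588). The 3 highest cortex-like values were in cortex Δ12-line +/+ female1 (4.26), striatum Δ12-line +/+ male1 (3.17) and striatum Δ12-line Δ12/Δ12 male3 (3.04). High and low values thus stood side by side within 1 labelled group, male Δ12/Δ12. The interval deposited with each value was as wide as that of about 11.9 fragments in the median cortex-like library and of 7.91 in the median striatum-like one. This interval left out the tissue's median in 10 of 30 cortex-like libraries, 4 above and 6 below it, and in 2 of 30 striatum-like libraries. The intervals cover counting and assignment error only.

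**Figure D1:**
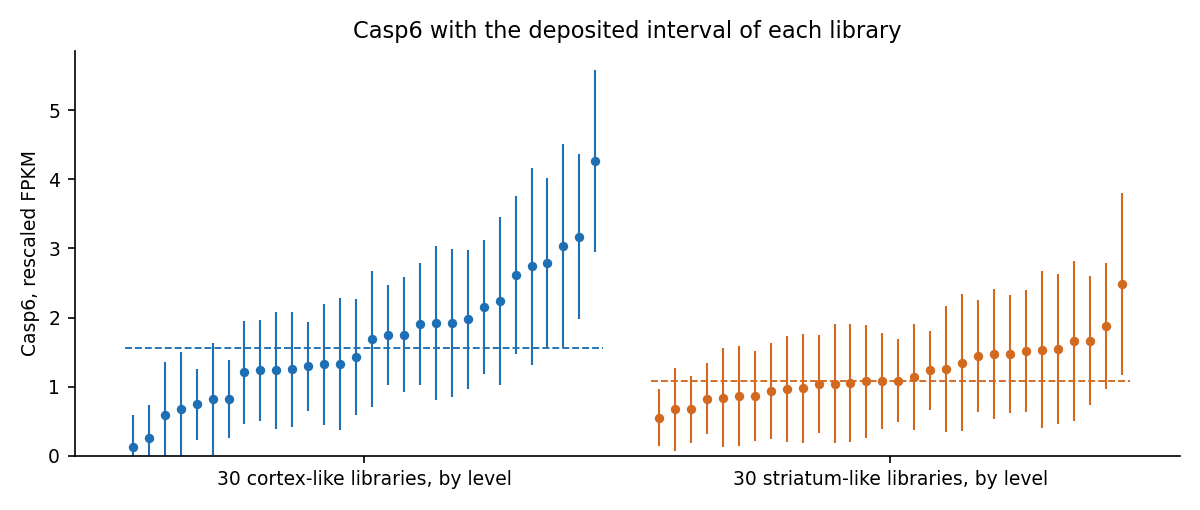
Rescaled FPKM of Casp6 in each library (points, sorted by level within each expression-defined tissue) with the interval deposited for that library (bars) and the median of the tissue (dashed line). In the cortex-like libraries the points run from 0.131 to 4.26 and 10 of 30 bars miss the median line, while in the striatum-like libraries they run from 0.548 to 2.48 and 2 of 30 bars miss it.

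Casp9, the initiator caspase activated by Apaf1 on the apoptosome, was higher in striatum-like than in cortex-like libraries. Its rescaled FPKM was 1.51, 2.22 and 3.23 in cortex-like and 2.39, 3.17 and 4.15 in striatum-like libraries. All 30 striatum-like libraries lay above the cortex-like median, and 14 of them lay above every cortex-like library. On FPKM as deposited these counts were 24 and 1. It varied least of the 5 caspases, with a coefficient of variation of 19.4% and 12.4%, and its intervals were as narrow as those of 44.8 and 81.0 fragments. Casp2, the initiator caspase activated by Pidd1 and Cradd in the PIDDosome, differed in the same direction at 0.60, 2.28 and 5.41 in cortex-like against 2.66, 3.86 and 5.90 in striatum-like libraries. All 30 striatum-like values of Casp2 exceeded the cortex-like median and 4 of 30 cortex-like values exceeded the striatum-like median. Casp8, the initiator caspase of death receptors recruited by Fadd, stood at 0, 0.495 and 0.959 in cortex-like and at 0.362, 0.617 and 1.18 in striatum-like libraries, with ranges that overlapped. Of the 30 striatum-like libraries 24 exceeded the cortex-like median of Casp8 and 4 exceeded every cortex-like library, or 15 and 0 on FPKM as deposited. Casp8 was listed at 0 in the same 2 libraries that had the fewest entries above 0, and at 0.238 or more in the other 28 cortex-like libraries.

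Casp1, the inflammatory caspase that matures interleukin-1 beta and interleukin-18 and cuts gasdermin D, had the largest log2 ratio of the 5 between the tissues. Its rescaled FPKM was 0.460, 0.876 and 1.5 in cortex-like and 0, 0.198 and 0.503 in striatum-like libraries. All but 1 of the 30 cortex-like libraries lay above every striatum-like library, and the exception was striatum Δ12-line Δ12/+ female1 at 0.460. In the FPKM as deposited the ranges of Casp1 did not overlap, at 0.529 to 1.87 against 0 to 0.427. Only 1 library, cortex Δ12-line Δ12/Δ12 female2, listed Casp1 at 0, and the median striatum-like value rested on an interval as wide as that of 5.0 fragments.

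**Figure D2:**
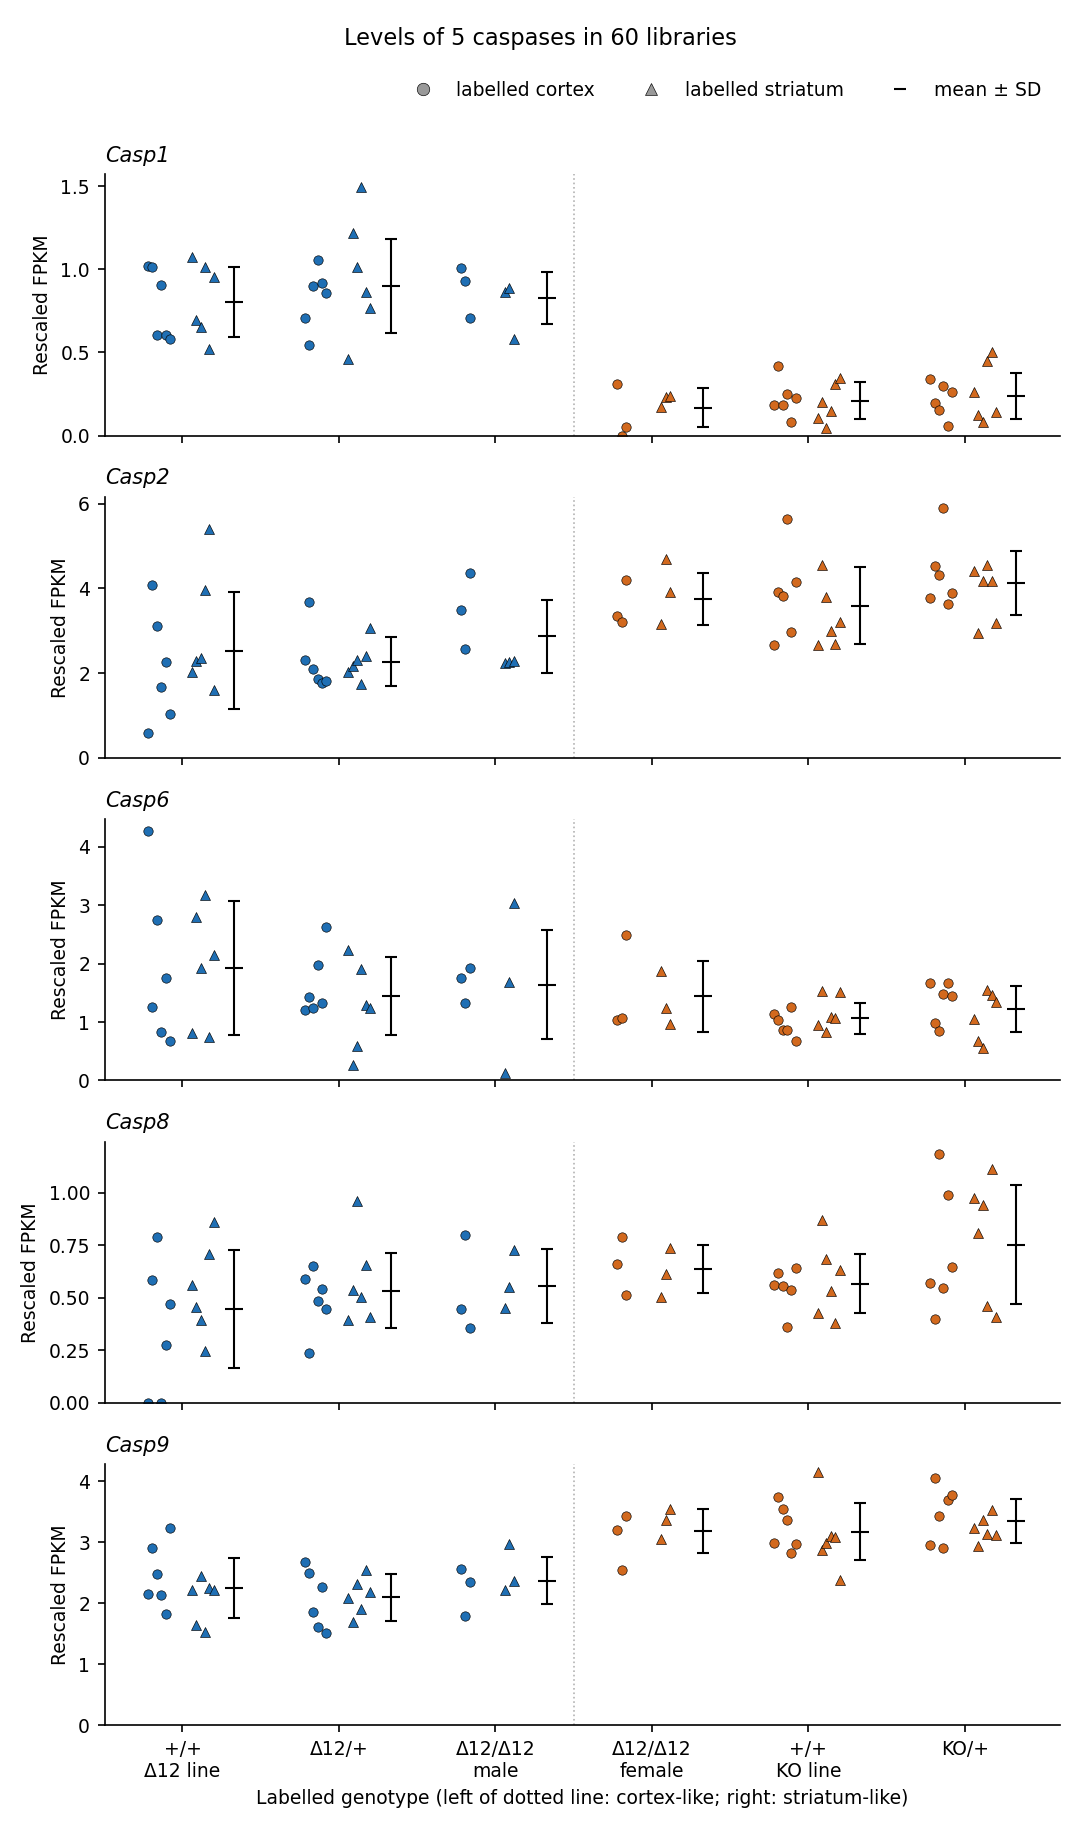
Rescaled FPKM of each caspase (1 panel per gene, linear axes from 0) in the 60 libraries by labelled genotype, cortex-like left and striatum-like right of the dotted line. Circles are libraries labelled cortex, triangles those labelled striatum, and bars give the mean ± SD of each genotype; Casp1 drops from medians near 0.876 to 0.198 across the line, Casp9 and Casp2 rise, and the genotypes within each side overlap for every caspase.

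Expressed as the log2 ratio of the 2 medians with 0.5 added to each, cortex-like over striatum-like, Casp1 stood at 0.98, Casp6 at 0.38, Casp8 at -0.17, Casp9 at -0.43 and Casp2 at -0.65. The median over all 16076 entries of at least 0.5 mean rescaled FPKM was -0.03. No caspase had ranges that did not overlap, whereas 16.9% of all entries were higher in every cortex-like library and 19.3% in every striatum-like one. An absolute log2 ratio above that of Casp1 was seen for 40.0% of all entries, and above that of Casp9 for 69.3%. On FPKM as deposited the median over all entries moved to 0.19 and the ratios to 1.15 for Casp1, 0.62 for Casp6, -0.02 for Casp8, -0.15 for Casp9 and -0.31 for Casp2, with the direction of all 5 caspases kept. This division of libraries was made on measured values and gets no test.

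Several measures moved with the division. The 10 entries of highest FPKM made up 61.6 to 92.3% of the summed FPKM in cortex-like and 56.1 to 85.5% in striatum-like libraries, and the depth was 12700000 to 19400000 against 16400000 to 27500000 fragments. The summed rescaled FPKM of 11 microglial markers was 173 to 256 in cortex-like and 137 to 184 in striatum-like libraries. Of the 11, 4 were higher in every cortex-like library and 3 in every striatum-like one, beside 16.9% and 19.3% of all entries. None of the 11 was at 0 in any library. That of 6 oligodendrocyte markers was 315 to 636 against 804 to 1310, that of 2 blood markers 482 to 1610 against 65.9 to 124, and that of 3 choroid plexus markers 1.63 to 374 against 31.7 to 2070. The sums of 6 astrocyte markers (371 to 832 against 477 to 619), 4 endothelial (25.9 to 56.8 against 24.3 to 38.3), 3 leptomeningeal (1.76 to 8.42 against 1.76 to 6.06), 2 ependymal (0.621 to 3.62 against 2.34 to 6.07) and 3 neutrophil markers (0 to 6.1 against 0 to 2.03) overlapped. The microglial and choroid plexus sums overlapped as well, and the oligodendrocyte and blood sums did not. No marker of these lists was at 0 in every library of a tissue. The part of each measure in the levels of the caspases was not tested, and labelled line cannot be told apart from tissue except in Δ12/Δ12. Because the tissues were sequenced whole, fewer cells of a type and less RNA per cell cannot be told apart.

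FPKM is a level per length, so the caspases can be ranked by the level of the gene, which is not that of its coding transcripts alone. In GENCODE M21 the protein-coding transcripts are 1 of 10 for Casp2, 3 of 6 for Casp9 and 1 of 4 for Casp6. They are 1 of 1 for Casp1 and 4 of 4 for Casp8. In cortex-like libraries the order of the medians was Casp2, Casp9, Casp6, Casp1 and Casp8, and in striatum-like libraries Casp2, Casp9, Casp6, Casp8 and Casp1. Casp2 exceeded Casp9 in 16 of 30 cortex-like libraries, so these 2 did not differ there beyond their spread, and in 25 of 30 striatum-like libraries. Casp9 exceeded Casp6 in 22 of 30 and 30 of 30 libraries, respectively. Casp1 exceeded Casp8 in 27 of 30 cortex-like libraries, and Casp8 exceeded Casp1 in 30 of 30 striatum-like libraries, so that the lowest pair changed places. The ranges over libraries of all neighbours in both orders overlapped.

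Casp4, Casp12 and Casp14, which belong to the same family, were below 0.5 mean rescaled FPKM over the 60 libraries. Casp12 passed this filter within the Δ12 line. Its mean was 0.997 in +/+ and 0.579 in Δ12/+ (log2 difference -0.40, SE 0.17, limma adjusted p = 0.683). Among males its mean was 1.10 in +/+ and 0.555 in Δ12/Δ12 (log2 difference -0.54, SE 0.18, limma adjusted p = 0.315). Both differences had a limma unadjusted p under 0.05, and neither was called. The male +/+ libraries are controls in both comparisons, so these differences are not independent. Casp12 is counted below with the pathway lists, not with the 5 caspases. In the mitochondrial pathway, which releases cytochrome c and leads to Casp9, 3 of 14 measured genes were higher in every cortex-like library and 3 in every striatum-like one, beside 16.9% and 19.3% of all entries. Those higher in cortex-like libraries were the protease gene Htra2 (median 23.3 against 4.90) and the pro-apoptotic Bcl2-family genes Bax (34.6 against 8.93) and Bad (36.0 against 9.54). Those higher in striatum-like libraries were the anti-apoptotic Bcl2l2 (5.76 against 18.0), Bcl2 and Bcl2l1. Family members with overlapping ranges did not keep this division. The anti-apoptotic Mcl1 had the higher median in cortex-like libraries (15.2 against 10.2). Of the pro-apoptotic genes, Bak1 (1.9 against 2.6), Bcl2l11 (0.44 against 0.76) and Bbc3 (1.38 against 1.58) had it in striatum-like libraries, and Bid (1.83 against 0.985) in cortex-like ones. Of 9 measured substrate genes, 5 were higher in every striatum-like library, with Acin1 (6.91 against 22.9), which acts in chromatin condensation, and the tau gene Mapt (21.9 against 63.6) farthest apart, and 1 was higher in every cortex-like library. Of 4 inhibitors of apoptosis 1 was apart, and none of 6 death receptor genes or of 5 genes of the inflammasome and PIDDosome was, although Pycard, the adaptor that joins Casp1 to inflammasomes, had medians of 5.90 and 0.756. These lists were chosen with results of these libraries known and describe them only.

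**Figure D3:**
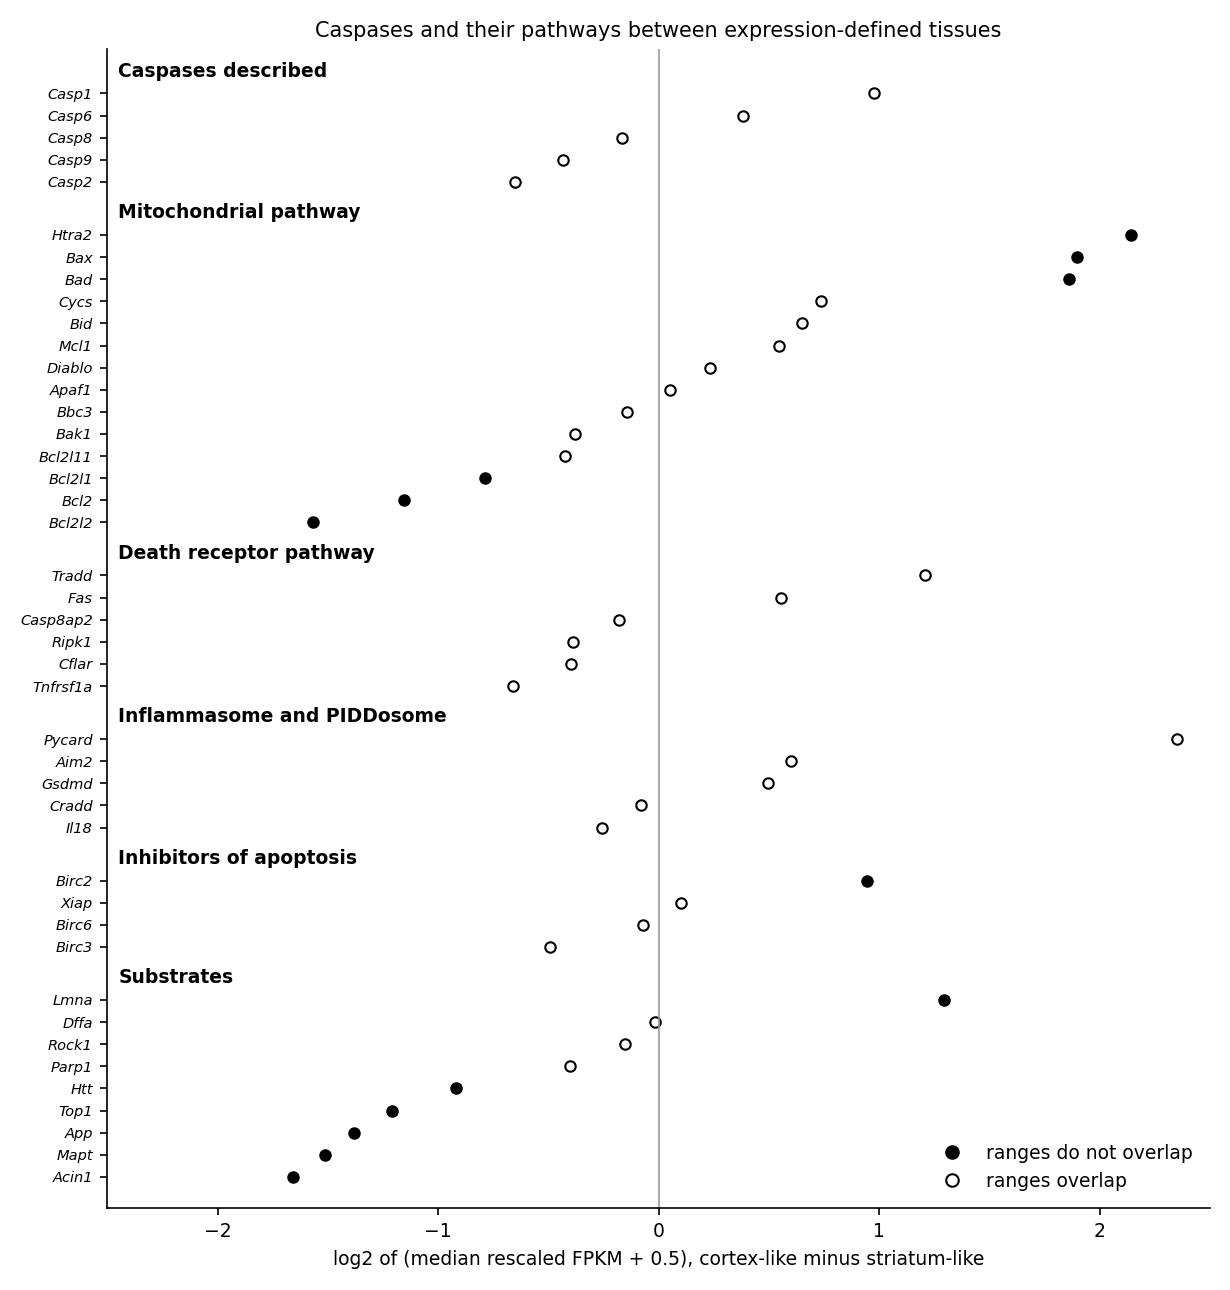
Difference in log2(median rescaled FPKM + 0.5), cortex-like minus striatum-like, for the 5 caspases and for the measured genes of their pathways. Filled circles mark genes whose ranges over the 30 and 30 libraries do not overlap; the 5 caspases, all open, lie between -0.65 and 0.98, and the mitochondrial pathway runs from Bcl2l2 to Htra2 on either side of 0.

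The genes whose levels ran most like those of each caspase were sought among 12388 entries of at least 1 mean rescaled FPKM in both tissues, by the mean of the Pearson r within the 30 cortex-like and within the 30 striatum-like libraries. For Casp6 these were Cdc25b (mean r 0.51) and Sstr2 (0.49), for Casp9 Zfp316 (0.46) and Brd2 (0.45), and for Casp8 Scaper (0.58) and Sntb2 (0.57). For Casp2 they were Setdb1 (0.55) and Nlgn1 (0.54), and for Casp1 Rasl11b (0.47) and Cplx3 (0.44). Between the caspases themselves r lay between -0.29 and 0.27 in cortex-like and between -0.15 and 0.30 in striatum-like libraries. The libraries behind each r share depth and composition, and these values are the highest of many, so they serve as a description.

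Between Δ12/+ and +/+ of the Δ12 line, 12 cortex-like libraries each, no caspase differed beyond the spread between libraries. Casp6 was at 0.673, 1.84 and 4.26 in +/+ and at 0.256, 1.31 and 2.62 in Δ12/+. Casp9 was at 1.52, 2.22 and 3.23 in +/+ and at 1.51, 2.13 and 2.68 in Δ12/+. Casp2 was at 0.60, 2.28 and 5.41 in +/+ and at 1.75, 2.13 and 3.68 in Δ12/+. The ranges overlapped for all of these, and the +/+ libraries of Casp2 and Casp6 spread more widely than the Δ12/+ libraries. Casp1 was at 0.521, 0.800 and 1.07 in +/+ and at 0.460, 0.881 and 1.5 in Δ12/+. Casp8 was at 0, 0.464 and 0.860 in +/+ and at 0.238, 0.522 and 0.959 in Δ12/+. For these 2 genes too, most libraries of both genotypes shared 1 range.

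On the log2(rescaled FPKM + 0.5) scale the difference, Δ12/+ minus +/+, was -0.26 for Casp6 (SE 0.26, 95% interval -0.79 to 0.27, limma adjusted p = 0.825). This value was -0.04 within the label cortex, -0.49 within the label striatum, -0.44 with sex taken from sex-linked transcripts, and -0.36 to -0.14 with 1 library left out, and was called in none of these. It was -0.08 for Casp9 (SE 0.10, interval -0.28 to 0.12), -0.01 for Casp2 (SE 0.21, interval -0.45 to 0.42) and 0.09 for Casp1 (SE 0.11, interval -0.14 to 0.32), with limma adjusted p of 0.86 to 0.99. Casp8 fell below the filter of 0.5 mean rescaled FPKM, and without that filter differed by 0.18 (SE 0.15, limma adjusted p = 0.853). Of the 4 caspases tested 0 were called at an adjusted p under 0.05 and 0 had an unadjusted p under 0.05, and over all 15173 entries 0.0% were called and 1027 had an unadjusted p under 0.05. The difference of Casp6 itself differed between labelled sexes by 0.96 (male minus female, SE 0.48, limma adjusted p = 0.669), which did not pass the test.

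Between male Δ12/Δ12 and male +/+ of the Δ12 line, 6 cortex-like libraries of 3 labelled mice each, the caspases again did not differ beyond the spread. Casp6 was at 0.673, 1.29 and 3.17 in +/+ and at 0.131, 1.72 and 3.04 in Δ12/Δ12 males. Casp9 was at 1.52, 2.18 and 3.23 in +/+ and at 1.79, 2.35 and 2.97 in Δ12/Δ12 males. Casp1 was at 0.521, 0.753 and 1.01 in +/+ and at 0.581, 0.875 and 1.01 in Δ12/Δ12 males. The genotypes overlapped over nearly the whole range of each gene. Casp8 was at 0, 0.373 and 0.860 in +/+ and at 0.356, 0.501 and 0.801 in Δ12/Δ12 males. Casp2 was at 1.03, 1.97 and 5.41 in +/+ and at 2.24, 2.43 and 4.36 in Δ12/Δ12 males. Within the label cortex, Casp2 was 1.67, 2.26 and 1.03 in the 3 +/+ males and 3.49, 2.58 and 4.36 in the 3 Δ12/Δ12 males. Within the label striatum it was 3.97, 5.41 and 1.60 in the +/+ males and 2.24, 2.27 and 2.29 in the Δ12/Δ12 males. The Δ12/Δ12 values thus lay above all +/+ values under 1 label and within their range under the other. The difference between the labels, -1.36 (striatum minus cortex, SE 0.50), did not pass the test over all entries (limma adjusted p = 0.773).

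The log2 difference, Δ12/Δ12 minus +/+, was 0.03 for Casp6 (SE 0.43, 95% interval -0.91 to 0.97, limma adjusted p = 0.982), so a change of the transcript of this caspase by a factor near 2 in either direction was not detectable. It was 0.11 for Casp9 (SE 0.15, interval -0.23 to 0.44), 0.22 for Casp2 (SE 0.32, interval -0.48 to 0.91) and 0.08 for Casp1 (SE 0.13, interval -0.21 to 0.38), with limma adjusted p of 0.827 to 0.842. Casp8 fell below the filter and without it differed by 0.25 (SE 0.21, limma adjusted p = 0.801). Of the 4 caspases tested 0 were called and 0 had an unadjusted p under 0.05, and over all 15185 entries 0.0% were called and 1727 had an unadjusted p under 0.05.

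Between KO/+ and +/+ of the KO line, 12 striatum-like libraries each, all 4 caspases tested had higher means in KO/+ but none passed the test. Casp8 was at 0.362, 0.558 and 0.870 in +/+ and at 0.400, 0.728 and 1.18 in KO/+. The upper end of KO/+ held 5 libraries above every +/+ library, and the lower ends were alike. Casp2 was at 2.66, 3.5 and 5.64 in +/+ and at 2.96, 4.17 and 5.90 in KO/+. Casp6 was at 0.672, 1.06 and 1.53 in +/+ and at 0.548, 1.39 and 1.66 in KO/+. The ranges of both overlapped over most of their length. Casp9 was at 2.39, 3.04 and 4.15 in +/+ and at 2.90, 3.31 and 4.05 in KO/+, within the range of +/+. Casp1 was at 0.0445, 0.192 and 0.421 in +/+ and at 0.0547, 0.227 and 0.503 in KO/+, a level of few fragments in either genotype.

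The log2 difference, KO/+ minus +/+, was 0.21 for Casp8 (SE 0.11, 95% interval -0.01 to 0.43, limma adjusted p = 0.233) and 0.19 for Casp2 (SE 0.11, interval -0.03 to 0.41, limma adjusted p = 0.287). It was 0.12 for Casp6 (SE 0.11, interval -0.12 to 0.35, limma adjusted p = 0.56) and 0.07 for Casp9 (SE 0.06, interval -0.06 to 0.20, limma adjusted p = 0.532). Casp1 fell below the filter and without it differed by 0.05 (SE 0.10, limma adjusted p = 0.838). Of the 4 caspases tested 0 were called and 0 had an unadjusted p under 0.05. Over all 15917 entries 8.97% were called (554 higher and 874 lower in KO/+) and 3880 had an unadjusted p under 0.05. The median over all entries was 0.02. Without striatum KO-line KO/+ female3, whose title names the other line and which held the lowest KO/+ value of Casp6 (0.548), the differences were 0.20 for Casp8, 0.18 for Casp2, 0.17 for Casp6 and 0.07 for Casp9 with 0 called, and that of the pathway gene Bad was 0.18 (limma adjusted p = 0.0419). On FPKM as deposited the difference of Casp9 was -0.04, and among libraries labelled striatum that of Casp6 was -0.08.

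Casp6 in the KO line was also set out by labelled sex. In KO/+ males it was 1.34, 1.47 and 1.66 and in KO/+ females 0.548, 0.908 and 1.67, while +/+ males were at 0.672, 1.08 and 1.51 and +/+ females at 0.828, 0.991 and 1.53. The labelled KO/+ males stood in a narrow band that overlapped the upper part of the other ranges. Labelled sex matched the higher of Xist and Ddx3y in only 17 of the 30 striatum-like libraries, which include the KO line. The difference of Casp6 between KO/+ and +/+ was larger in labelled males by 0.47 (SE 0.21), which did not pass the test over all entries (limma adjusted p = 0.643).

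Markers of cell types also moved with the KO/+ label, where 554 of all 15917 entries were called higher and 874 lower. These calls are from both tissue labels together. Among libraries labelled cortex only 14 of all entries were called, whereas the count among those labelled striatum stayed much nearer to that of both labels. All 6 oligodendrocyte markers measured fell, with a summed level of 804 to 1110 in KO/+ against 903 to 1310 in +/+. Of 6 cortical neuron markers 2 rose and 1 fell, with sums of 13.4 to 88.9 against 13.9 to 40.9, and of 8 striatal neuron markers 2 rose. Of 6 astrocyte markers 2 fell, and no microglial marker of 11 was called, with sums of 137 to 184 and 149 to 182. No marker of the endothelial, choroid plexus, leptomeningeal, ependymal and blood lists was called in KO/+, where the neutrophil markers were below the filter, and none of any list in the 2 comparisons of the Δ12 line. The part of these markers in the values of the caspases was not tested.

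**Figure D4:**
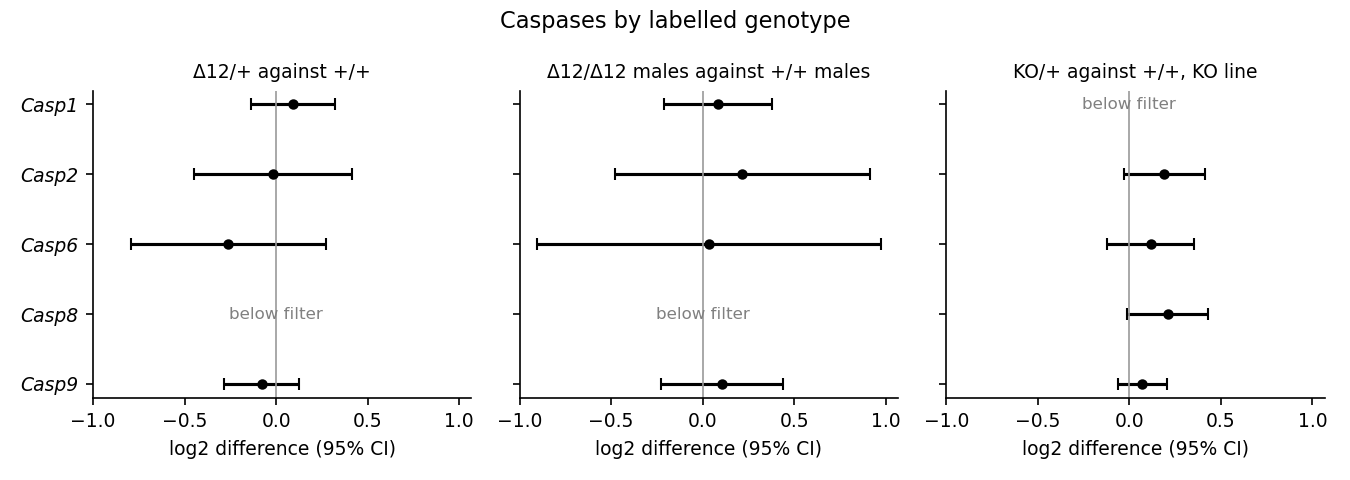
Log2 difference of each caspase with its 95% confidence interval from limma in the 3 comparisons of labelled genotypes. Every interval includes 0, the widest being that of Casp6 in Δ12/Δ12 males (-0.91 to 0.97) and the narrowest that of Casp9 in KO/+ (-0.06 to 0.20); genes below 0.5 mean rescaled FPKM in a comparison are marked as below the filter.

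The genes that act around the caspases were tested in the same fits. Of 38 genes tested from the 6 pathway lists, 0 were called between Δ12/+ and +/+ (0.0% of all entries), where Xiap, an inhibitor of Casp9, had the smallest unadjusted p at a log2 difference of 0.23 (SE 0.08, limma adjusted p = 0.526). Of 38 genes tested 0 were called between male Δ12/Δ12 and +/+ (0.0% of all entries), where the anti-apoptotic Mcl1 came nearest at -0.66 (SE 0.16, limma adjusted p = 0.219). Of 37 genes tested 1 was called in KO/+ (8.97% of all entries), where Bad rose by 0.18 (SE 0.05, limma adjusted p = 0.0288) from a mean of 8.94 to 10.2 rescaled FPKM. This call of Bad was lost on FPKM as deposited (0.06, limma adjusted p = 0.669), with 1 value per labelled mouse (0.18, adjusted p = 0.0774) and within the label cortex (0.14, adjusted p = 0.416) or striatum (0.23, adjusted p = 0.118). It was also lost without striatum KO-line +/+ male2 (0.17, limma adjusted p = 0.0517) or without cortex KO-line KO/+ female2 (0.17, adjusted p = 0.0506). The 14 genes of the mitochondrial pathway, Bad among them, had a median difference of 0.05 in KO/+.

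The 6 female Δ12/Δ12 libraries were striatum-like and have no +/+ libraries of their line in that tissue, so they are set beside the 6 female +/+ libraries of the KO line with no test. Casp6 was at 0.966, 1.15 and 2.48 in female Δ12/Δ12 and at 0.828, 0.991 and 1.53 in female +/+. Casp9 was at 2.55, 3.29 and 3.55 against 2.88, 3.27 and 4.15, and Casp8 at 0.505, 0.638 and 0.788 against 0.426, 0.590 and 0.870. Casp2 was at 3.15, 3.64 and 4.69 against 2.66, 3.81 and 4.54, and Casp1 at 0, 0.203 and 0.308 against 0.0445, 0.181 and 0.420. All 5 ranges overlapped, and line and genotype cannot be told apart here. The male Δ12/Δ12 libraries, which were cortex-like, differed from the female ones as the 2 expression-defined tissues did, with medians of Casp1 of 0.875 and 0.203.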

How the data were processed

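The authors deposited 1 table per library holding each gene's FPKM, which is scaled to transcript length and sequencing depth, with the bounds of an interval around it, in the layout of Cufflinks on GRCm38.p4. Per the labels, bcl2fastq 2.20, Trimmomatic 0.30, TopHat2 2.0.14, SAMtools 1.3 and HTSeq 0.6.1p1 were used, without their roles. The annotation release is not given in the sources used here. The tables hold no counts, and the deposited bounds gave the estimate of depth.

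From these values, 23 entries whose status was not OK in every library were left out. FPKM was divided by the median ratio of each library to the geometric mean over 13235 entries. Differences were tested with limma 3.58.1 in R 4.3.3 on log2(rescaled FPKM + 0.5), for entries of at least 0.5 mean rescaled FPKM, with labelled sex and tissue as covariates and labelled mouse as block (consensus correlation -0.05, -0.04 and 0.02, negative values taken as 0). Where the correlation was taken as 0, the 2 libraries of a labelled mouse counted as independent. Benjamini-Hochberg adjusted p under 0.05 were called. Such fold changes understate the change of low genes. The fit was run on simulated data of independent libraries without the mouse block, so that run does not cover the block.

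The caspases, the pathway and marker lists and the tests were chosen with earlier results of these data known. Named besides the caspases are the called list genes of each comparison, or that of smallest p, the list genes whose ranges do not overlap between tissues (at most 6), and the 2 genes most like each caspase. Bcl2, Bcl2l1, Bak1, Bcl2l11, Bbc3, Bid and Pycard were named after their values were seen. The values of Casp12, and those of Mcl1 between tissues, were added in the same way. Some members of the pathway lists are not reported here. Alternatives were another scaling, pseudocount, filter, covariate, block, weighting, threshold or control group, and each library left out.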

Additional observations from a re-analysis of the deposited data

Results flagged for a closer look

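Of 50 sets of 6 libraries (5 caspases in 10 labelled groups), 1 held a library far from the others. Casp2 was 3.68 rescaled FPKM in cortex Δ12-line Δ12/+ female2, against 1.77 to 2.30 in the other 5 libraries of its group. Chance alone marks about 1 such set in 20. Whether the difference of a caspase between genotypes differed between labelled tissues or sexes was asked in 20 limma tests, and none passed (lowest adjusted p = 0.458). The limma unadjusted p was 0.0223 for Casp2 by labelled tissue in Δ12/Δ12 males and 0.0333 for Casp6 by labelled sex in KO/+.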

How the results depend on the processing

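The count of called caspases was 0 in the 3 comparisons of labelled genotypes under every alternative run, including each library left out in turn. Signs of differences that were never called turned in several settings, and the cause was not tested. Between Δ12/+ and +/+, Casp2 went from -0.01 to 0.013 with a pseudocount of 0.1, to 0.10 with sex taken from sex-linked transcripts, to 0.20 among libraries labelled cortex, and to between -0.14 and 0.085 with 1 library left out, and Casp9 went to 0.046 among libraries labelled striatum. In Δ12/Δ12 males, Casp6 went from 0.03 to -0.041 with a pseudocount of 0.1, to -0.43 among libraries labelled striatum, to -0.062 without the 2 libraries of fewest entries (chosen after seeing the data), and to between -0.15 and 0.40 with 1 library left out. Among libraries labelled cortex Casp6 was at 0.50 there and Casp2 at 0.90, against 0.22 in all. Casp2 went to -0.46 among libraries labelled striatum and to -0.070 with array weights, Casp1 to -0.045 among those labelled striatum, and Casp9 to -0.068 among those labelled cortex. In KO/+, Casp9 went to -0.042 on FPKM as deposited and Casp6 to -0.078 among libraries labelled striatum. Between tissues, FPKM as deposited moved the log2 ratio of Casp9 from -0.43 to -0.15, and left 1 caspase, Casp1, with ranges that did not overlap instead of 0. Over all entries, the calls in KO/+ numbered 1428 in all libraries, 14 among those labelled cortex, 2318 at an adjusted p under 0.1, and 1042 to 1623 with 1 library left out. The other 16 of 18 alternatives, libraries labelled striatum among them, stayed nearer to 1428. In Δ12/+ they went from 0 to at most 10 (31 without striatum Δ12-line Δ12/+ female3), and in Δ12/Δ12 males from 0 to at most 18.

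Replicate numbers did not pair the libraries. The deviations of same-numbered libraries correlated at -0.22 to 0.05 in Δ12/+, -0.03 to 0.05 in Δ12/Δ12 males and -0.12 to 0.08 in KO/+, and 0 of 24, 3 of 12 and 2 of 24 libraries correlated best with their own number. With a replicate block the calls over all entries were 0, 0 and 1134, and those among the caspases 0. In the median striatum-like library the interval of Casp1 was as wide as that of 5.0 fragments and that of Casp6 as that of 7.91, so that small differences of these genes were not detectable at this depth.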
